A study of Homo sapiens with 8 samples.

Results

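This account describes the 316 Sp1 peaks that both antibodies recovered away from annotated promoters and away from CTCF. A peak of antibody 1 on the autosomes or X was included if it overlapped an antibody 2 peak by at least 1 bp, if its summit lay more than 1 kb from every transcript start in GENCODE, and if it overlapped no CTCF peak found in both CTCF replicates. The members were therefore chosen by being called with both Sp1 antibodies, by their CTCF calls and by position, and none of these is reported as a finding. They made up 316 of the 4222 Sp1 peaks shared by the antibodies on these chromosomes, out of 8706 antibody 1 peaks in all. Of the other shared peaks, 2944 were promoter peaks without shared CTCF, 811 were promoter peaks with CTCF and 151 were distal peaks with CTCF.

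The libraries were ChIP-seq libraries of U-2 OS, a human osteosarcoma cell line, fixed with 1% formaldehyde for 6 min. The Sp1 and IgG libraries came from cells with V5 and Halo tags knocked into the endogenous SP1 gene, which the sample titles call the parental line. Each of 2 anti-SP1 rabbit antibodies gave 1 library, as did normal rabbit IgG. The 2 CTCF libraries came, by their labels, from clone C32, a single clone with FLAG and Halo tags knocked into CTCF, whereas the text of the series names unmodified cells. The lists hold no read counts, and read totals were not used here, so the depth behind a peak is unknown, and with 1 library per Sp1 antibody no difference has a replicate check and no test was possible. Intervals below are 95% Wilson intervals, which cover counting error only, and peaks of 1 library are not replicates.

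Sp1 is a zinc finger transcription factor of the Sp and KLF family. Its zinc fingers bind GC boxes, short GC-rich words that are common in CpG island promoters, and its long disordered arms carry the activation domains. Sp1 is best known at promoters, where it works with factors such as NF-Y, which binds CCAAT boxes. Away from promoters, GC boxes occur in enhancers, in CpG islands within genes and in GC-rich tandem repeats.

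Representative sequences show the range of sites at which both antibodies gave distal peaks. Each is a stretch of the hg38 plus strand centred on a summit. The first 3 belong to members with some of the highest fold enrichment and carry GC boxes (GGGCGG, on this strand also CCGCCC) or a variant of the box with T at the end (GGGCGT, also ACGCCC), with these words and any CAGGAA in capitals. NACC2 and MRGBP mark the nearest genes, and the GALNT9 site lies in an intron. By RefSeq, the MRGBP summit lies 143 bp from a start of LOC105372716.
NACC2 site, chr9:135990739-135990839: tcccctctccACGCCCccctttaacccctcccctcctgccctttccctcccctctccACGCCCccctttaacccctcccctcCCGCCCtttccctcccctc
MRGBP site, chr20:62794374-62794474: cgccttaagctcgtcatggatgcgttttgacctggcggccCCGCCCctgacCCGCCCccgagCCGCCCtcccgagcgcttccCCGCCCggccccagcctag
GALNT9 site, chr12:132244508-132244608: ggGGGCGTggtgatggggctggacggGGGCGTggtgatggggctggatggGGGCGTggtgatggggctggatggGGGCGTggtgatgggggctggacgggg
The GRIN1 site, in an intron of GRIN1, shows GC boxes repeated in a tandem array, with GC boxes alone in capitals.
GRIN1 site, chr9:137150988-137151286: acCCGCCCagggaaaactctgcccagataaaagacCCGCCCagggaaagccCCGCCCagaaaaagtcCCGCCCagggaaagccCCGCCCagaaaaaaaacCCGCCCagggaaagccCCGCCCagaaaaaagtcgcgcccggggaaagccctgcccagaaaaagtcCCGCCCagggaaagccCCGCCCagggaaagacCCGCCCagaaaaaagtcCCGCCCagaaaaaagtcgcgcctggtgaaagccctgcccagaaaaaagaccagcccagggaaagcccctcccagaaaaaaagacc
Next come 3 of the 12 sites at which the antibody 2 peak was at least 2-fold stronger. They lie near FRG1, in an intron of RAP1GAP2 (at the summit of antibody 2) and near PIM3. Their capitals are CAGGAA (also TTCCTG) and, near PIM3, the box variant. CAGGAA lay at the antibody 2 summit in 5 of the 12, these 3 among them.
FRG1 site, chr4:189722453-189722553: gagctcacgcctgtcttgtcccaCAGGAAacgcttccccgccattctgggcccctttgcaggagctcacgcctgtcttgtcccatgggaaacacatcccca
RAP1GAP2 site, chr17:2975493-2975593: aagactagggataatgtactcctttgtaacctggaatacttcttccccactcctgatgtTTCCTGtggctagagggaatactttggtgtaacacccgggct
PIM3 site, chr22:49945122-49945222: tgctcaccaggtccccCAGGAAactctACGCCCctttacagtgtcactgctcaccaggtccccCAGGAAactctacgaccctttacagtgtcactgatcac
The last are from the strongest members in GGAAT satellite, with GGAAT in capitals, and in alpha satellite, with no word marked.
GGAAT satellite site, chr16:34063066-34063166: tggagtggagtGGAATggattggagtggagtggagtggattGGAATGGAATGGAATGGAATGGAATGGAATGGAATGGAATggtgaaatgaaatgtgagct
Alpha satellite site, chr10:41180183-41180353: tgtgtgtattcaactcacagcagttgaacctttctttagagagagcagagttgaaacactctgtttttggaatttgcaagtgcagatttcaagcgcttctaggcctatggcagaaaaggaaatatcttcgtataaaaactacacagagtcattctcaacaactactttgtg

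Fold enrichment over the control, a linear ratio that the peak caller assigns to each summit, was modest for most members. With antibody 1 it ranged from 1.23 to 129 with a median of 8.24 and quartiles of 4.80 and 13.5. With antibody 2 it ranged from 1.17 to 259 with a median of 5.71 and quartiles of 4.13 and 8.72. The shared promoter peaks had medians of 10.5 and 6.93, and the distal peaks with CTCF had medians of 6.56 and 4.79. Member peaks had a median width of 579 bp, and the summits of the antibodies lay a median of 53 bp apart. In 207 members the summits were within 100 bp of each other, or 65.5%, beside 67.7% of all shared peaks.

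The members fell into sequence classes that the rule did not use. The classes were set up after the sequences had been seen, from the sequence and position alone, and carry no test. Of the 316 members, 189 fell in no repeat class, of which 77 were CpG-rich and 112 were not. A further 74 were tandem repeats, 17 were GGAAT satellite, 13 lay in the ribosomal DNA copies of chromosome 21, 12 were alpha satellite and 11 shared one interspersed stretch with CCAAT boxes, here called the CCAAT element. Tandem repeats were windows reaching 250 bp to each side of the summit in which fewer than 70% of the 8 bp words were distinct. The 189 members in no repeat class are called non-repeat by that limit alone, and some of them, the NACC2 site among them, still hold a repeated unit. By that measure alone, 93 members were repetitive, a share of 29.4% (24.7 to 34.7%), beside 1.80% of shared promoter peaks and 0.811% of 29108 windows spaced 100 kb apart along the genome. The distal peaks with CTCF had a like share of 30.5% (23.7 to 38.2%).

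**Figure D1:**
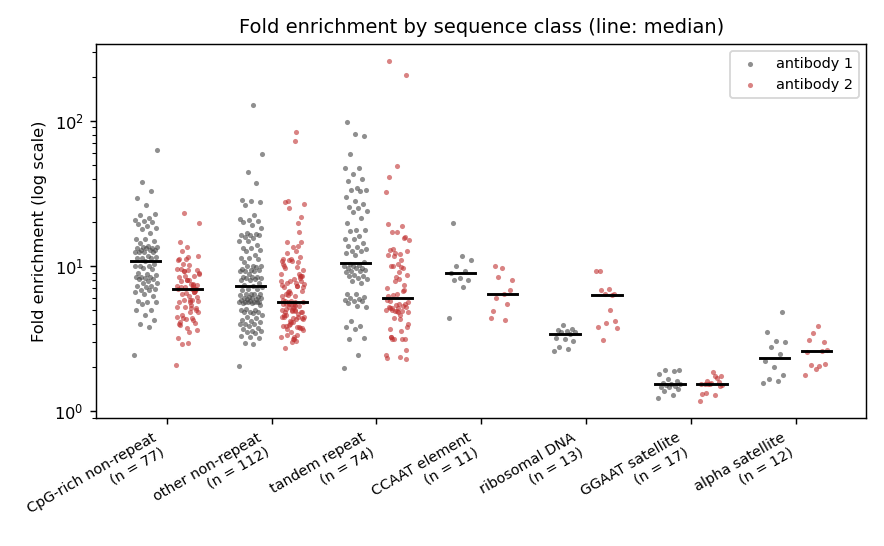
Fold enrichment (log scale) of each member with antibody 1 (grey) and antibody 2 (red) by sequence class, with the median as a line. Tandem repeats reach 98.0 and 259, whereas the GGAAT satellite members lie between 1.17 and 1.93 with both antibodies.

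GC boxes were concentrated at the summits of the members. A GC box lay within 50 bp of the antibody 1 summit in 132 of 316 members, 41.8% (36.5 to 47.3%). In windows of the same length 500 bp to each side the share was 11.9% (9.57 to 14.6%), and in 291116 windows spaced 10 kb apart along the genome it was 1.51%. Shared promoter peaks held a GC box more often, at 59.5% (57.8 to 61.3%), and distal peaks with CTCF at 35.1% (27.9 to 43.0%). At the summits of antibody 2 the members' share was 35.4% (30.4 to 40.9%). Counted in 25 bp steps, the number of GC boxes per 100 members was 25.6 just beyond the summit. It was 2.85 and 3.16 in the outermost steps of the 2 sides, and 10.4 in the step 425 to 450 bp beyond the summit. The 9 bp form GGGGCGGGG, which contains the GC box, was found in 18.0% of members, 1.74% of the windows to the side and 0.147% of the genome windows.

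**Figure D2:**
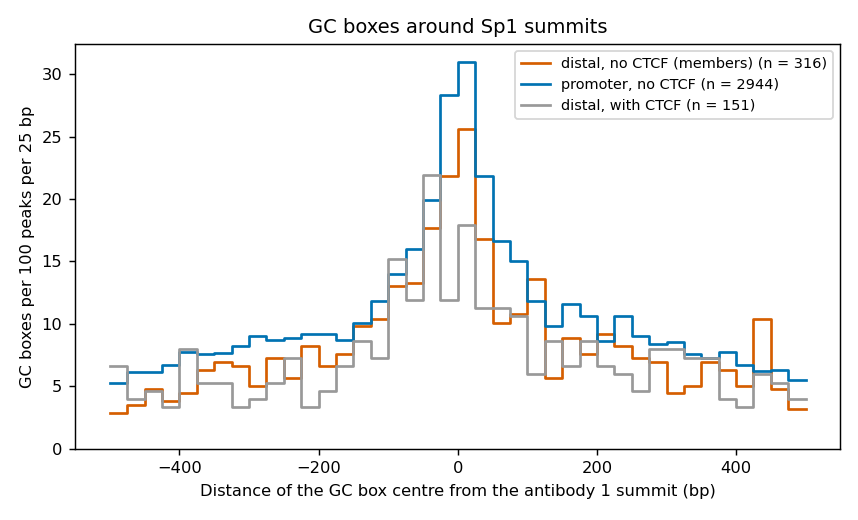
GC boxes per 100 peaks in steps of 25 bp, against distance from the antibody 1 summit in bp, for the 316 members, 2944 promoter peaks and 151 distal peaks with CTCF. Members reach 25.6 and promoter peaks 31.0 in the step just beyond the summit, and distal peaks with CTCF reach 21.9 within 50 bp of it.

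The classes differed widely in GC boxes. Among CpG-rich non-repeat members 54 of 77 held a box at the summit, 70.1% (59.2 to 79.2%), which overlaps in range with the share of promoter peaks. Among the other non-repeat members 56 of 112 did, 50.0% (40.9 to 59.1%). The share was 28.4% (19.4 to 39.5%) in tandem repeats and 1 of 13 in ribosomal DNA. No box was found within 50 bp of the summit in the 17 GGAAT satellite, 12 alpha satellite or 11 CCAAT element members, counts that allow shares of up to 18.4%, 24.2% and 25.9%. Without the repeat classes the share over the remaining 189 members was 58.2% (51.1 to 65.0%), and at their flanks it was 12.4% (9.48 to 16.1%).

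The variant GGGCGT was counted after it had been seen in the strongest members. It was found in 18.0% of members (14.2 to 22.7%), 3.96% of the windows to the side, 1.16% of genome windows and 17.2% of promoter peaks. A box or the variant was present at 163 summits, 51.6% (46.1 to 57.0%), and 153 members had neither within 50 bp. The members with a box or variant had median fold enrichments of 11.3 and 6.99 with antibodies 1 and 2, and those with neither had 5.78 and 4.80. In the weakest 25% of members by antibody 1, 17.7% (10.9 to 27.6%) held either word, and in the strongest 25% 79.7% (69.6 to 87.1%). Ranked by antibody 2, the same shares were 23.8% (15.8 to 34.1%) and 69.6% (58.8 to 78.7%). The satellite and ribosomal classes were concentrated in the weakest 25% by antibody 1, which held 41 of their 42 members.

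Some members held long arrays of the box. Within 150 bp of the summit 118 members had at least 2 GC boxes and 36 had at least 5. The highest number was 12, in an intron of JAKMIP3 (chr10:132149295-132150024), with fold enrichments of 21.3 and 9.61. An intron of C20orf96 (chr20:278697-279289) held 11, with fold enrichments of 43.2 and 12.3. The GRIN1 site (chr9:137149953-137151707), in the gene of an NMDA receptor subunit, held 11 in a repeat of 16 bp, with 23.9 and 15.1. A site 23.1 kb from CCNE1, the gene of cyclin E1, held 10 (chr19:29844291-29845505), with 32.7 and 7.52. Its nearest start of any kind, of a noncoding gene, lay 3.06 kb away. An intron of ELFN1 held 10 (chr7:1718872-1719637), with 10.4 and 4.94.

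Other words were sought in the same windows, on either strand. CCAAT boxes, the core of NF-Y sites, were found in 19.0% of members (15.0 to 23.7%) against 9.97% (7.87 to 12.6%) to the side, 14.6% of genome windows and 28.0% of promoter peaks. The CACCC box, bound by KLF relatives of Sp1, was found in 21.8% (17.6 to 26.7%), beside 16.6% (13.9 to 19.7%) to the side, 19.1% of promoter peaks and 5.54% of genome windows. The ETS core CCGGAA was found in 15 members, 4.75% (2.90 to 7.68%), against 2.22% to the side, 0.623% of genome windows and 16.6% (15.3 to 18.0%) of promoter peaks. At antibody 2 summits its share was 6.65% (4.39 to 9.95%). All members together thus held GC boxes, CCAAT boxes and ETS cores less often than promoter peaks did, by intervals that do not overlap. Over the 189 non-repeat members the intervals overlapped for GC boxes, at 58.2%, and for CCAAT boxes, at 21.7% (16.4 to 28.1%), but not for ETS cores, at 6.88% (4.06 to 11.4%).

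The words of AP-1, RUNX and C/EBP, factors known from enhancers, were not above their shares of genome windows, which lay within the members' intervals. Genome windows were lower in GC content than members, as given below, and its effect on these shares was not tested. The AP-1 site TGANTCA, bound by Fos and Jun dimers, was found in 7 members, 2.22% (1.08 to 4.50%), beside 1.74% to the side and 3.10% of genome windows. The RUNX word TGTGGT was found in 4.43% (2.66 to 7.30%), beside 5.54% to the side and 6.94% of genome windows. The C/EBP word TTGCNCAA was found in 1 member, 0.316% (0.0559 to 1.77%), beside 0.949% to the side and 1.15% of genome windows. The TEAD word GGAATG, which overlaps the GGAAT satellite unit, was found in 8.86% (6.20 to 12.5%), beside 7.44% to the side. Its share of genome windows lay below the members' interval. The word was found in 94.1% of the GGAAT satellite members and in 3.70% (1.81 to 7.45%) of the 189 non-repeat members. The interval of the non-repeat members held the share of genome windows. The YY1 core ATGGCG was found in 1.58% of members, 1.21% of genome windows and 6.49% of promoter peaks, and the E-box CACGTG in 0.633%, 0.919% and 4.31%. TCGCGAGA was found in 0 members, which allows up to 1.20%, in 0.00687% of genome windows and in 2.79% of promoter peaks. The NRF1 word TGCGCATG was found in 1.58% of members (0.678 to 3.65%), 0.158% of the windows to the side, 0.0553% of genome windows and 1.87% of promoter peaks. The CRE word TGACGTNA was found in 1.27% (0.493 to 3.21%), 0.158%, 0.201% and 2.82%. The CTCF core was found in 0 members, which allows up to 1.20%, in 0.0347% of genome windows and in 0.102% of promoter peaks. It was found in 3.31% of distal peaks with CTCF, but the rule split these sets by their CTCF peaks.

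**Figure D3:**
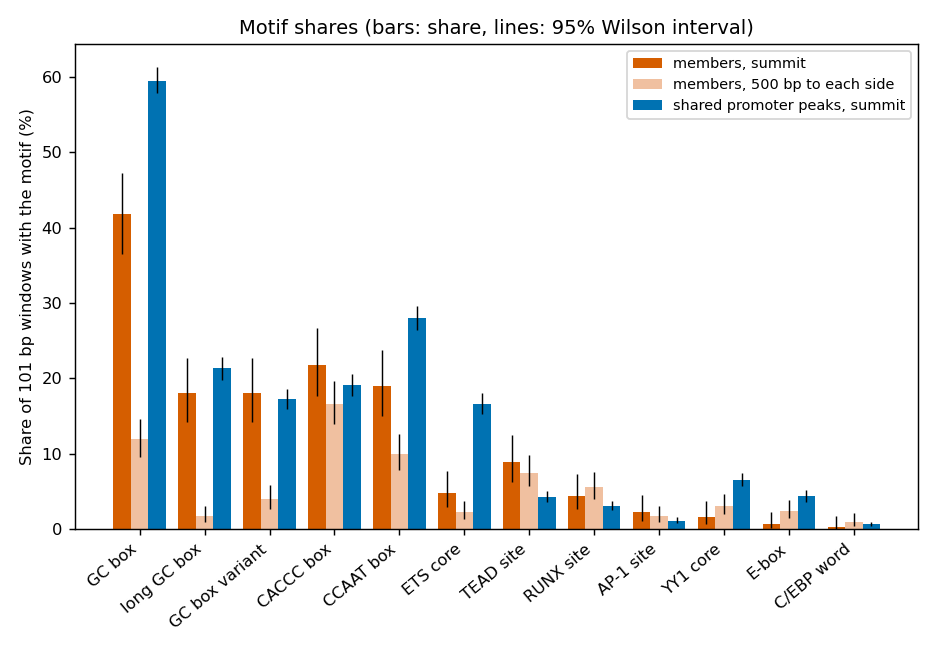
Share of windows reaching 50 bp to each side (%) that hold each motif at member summits, 500 bp to each side of them and at shared promoter summits, with 95% Wilson intervals. The GC box falls from 41.8% to 11.9% between summit and side, whereas the AP-1 site is at 2.22% and 1.74%.

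Among all 7 bp words present in at least 5% of members, those most raised over the windows to the side were CCAATCA, at 7.28% against 0.633%, ACGCCCC, at 11.4% against 1.11%, and ACGCCCA, at 5.70% against 0.791%. They were chosen by these values, which are a description. The latter pair hold the box variant, and CCCGCCC, an extended GC box, was next, at 34.5% against 5.54%. CCAATCA was held by 23 members. All 11 CCAAT element members, which share 1 stretch of sequence, held CCAAT within 50 bp of the summit. How many of the 23 were copies of that element is not given here, so the 23 are not separate sequences.

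Tandem repeats supplied most of the 20 strongest members but did not have the highest class medians. Their median fold enrichments were 10.5 and 5.99 with antibodies 1 and 2, beside 10.9 and 6.89 in CpG-rich non-repeat members. Of the 20 members with the highest mean log2 fold enrichment, 13 were tandem repeats, 5 were other non-repeat members and 2 were CpG-rich. The NACC2 site, counted as non-repeat, best matched itself at a shift of 47 bp, and the ESPNL site at 14 bp. The repeat unit was the shift of 5 to 300 bp at which the 500 bp on each side of the summit best matched themselves. Over the 74 tandem repeats it had a median of 30 bp, and 57 units were 10 to 100 bp long. Every window has such a shift, so a shift alone does not show a repeat. The matching bases had a median of 56.2% in tandem repeats, and were 36.6% at the NACC2 site and 36.3% at the ESPNL site. The chromosomal position of the tandem repeats set them apart in number. Within 5 Mb of a chromosome end lay 60 of 74 tandem repeats, 81.1% (70.7 to 88.4%), against 24.3% (18.8 to 30.9%) of the 189 non-repeat members and 11.7% (10.5 to 12.9%) of shared promoter peaks. These stretches make up 7.59% of the chromosomes' length. Within 2 Mb of an end lay 52 of the 74. Within 150 bp of the summit 36 of the 74 held a GC box or its variant, and 22 held at least 5.

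**Figure D4:**
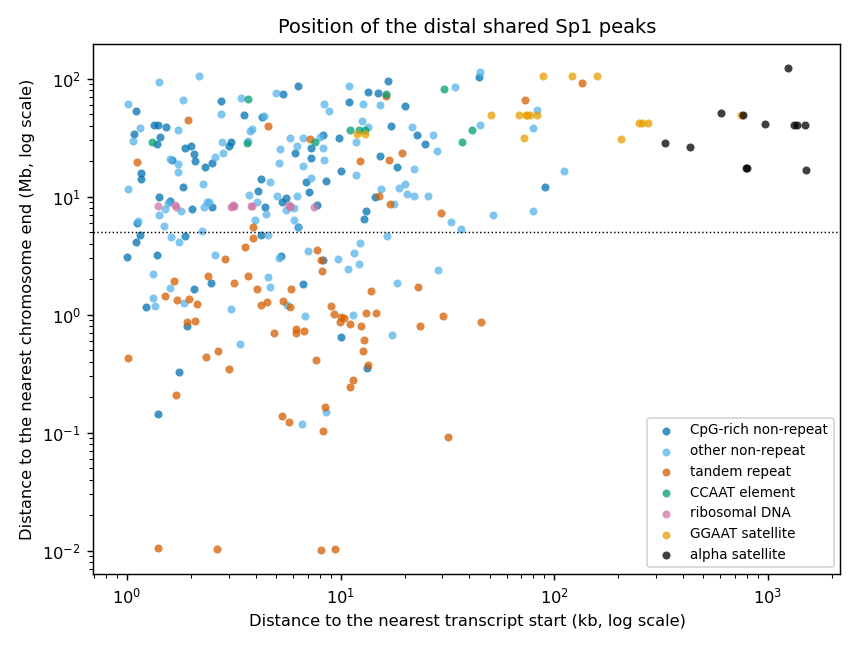
Distance of each member's summit from the nearest transcript start (kb, log scale) and from the nearest chromosome end (Mb, log scale), coloured by sequence class. Tandem repeats mostly lie under the dotted line at 5 Mb, and alpha satellite members lie 331 kb to 1520 kb from any start.

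The member with the highest mean log2 fold enrichment was a repeat of 47 bp at chr22:49944603-49945887, 15.6 kb from PIM3, a serine/threonine kinase gene, with 78.5 with antibody 1 and 207 with antibody 2. It also overlapped a CTCF replicate 1 peak of fold enrichment 3.20. The NACC2 site (chr9:135990300-135991222), 28.7 kb from the start of that BTB domain repressor gene, had 129 and 72.2. The FRG1 site (chr4:189722234-189722724), a repeat of 61 bp lying 218 kb from FRG1, had 19.7 and 259. The nearest start of any kind lay 12.8 kb from the FRG1 site and 9.89 kb from the PIM3 site. The GALNT9 site (chr12:132244030-132245017), in the gene of a glycosyltransferase, had 98.0 and 40.9, with no GC box and 12 copies of the variant within 150 bp. These 4 sites are printed above, and only the first and the third were higher with antibody 2.

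The CD300LB site (chr17:74513767-74515353), 17.0 kb from an immune receptor gene, had 80.7 and 48.5. It was a repeat of 17 bp with no GC box or variant within 150 bp, and it overlapped an IgG peak of fold enrichment 4.07. The ESPNL site (chr2:238098155-238099012), which lies in an annotated UTR exon of SCLY, had 58.7 and 26.7. A site in an intron of CACNA1H, a voltage-gated calcium channel gene, had 47.3 and 32.2 (chr16:1185517-1186477). The MRGBP site (chr20:62793941-62795136), near the gene of a histone acetyltransferase subunit, had 63.1 and 19.9 and 9 GC boxes within 150 bp. The MRGBP summit lay 143 bp from a RefSeq start of LOC105372716. Introns of SBNO2 (chr19:1122749-1123733) and of MADCAM1 (chr19:491360-492521), the gene of a mucosal adhesion molecule, had 44.3 and 25.2, and 59.3 and 17.0. RefSeq placed a start of CIMAP1D 209 bp from the MADCAM1 summit.

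Spearman's rho of fold enrichment between the antibodies was 0.70 over the 316 members, 0.60 over the 189 non-repeat members, 0.73 over the 74 tandem repeats and 0.40 over all 4222 shared peaks. These are correlations across peaks that share 1 library per antibody. The log2 ratio of antibody 2 to antibody 1 had a median of -0.54 in members, with quartiles of -0.95 and 0.03, and of -0.65 in all shared peaks. Antibody 2 was at least 2-fold higher in 12 members, 3 of them in ribosomal DNA, and antibody 1 in 73. Over all 4222 shared peaks 9.43% were at least 2-fold higher with antibody 2 and 30.6% with antibody 1. After centring on the median of all shared peaks the member counts were 42 and 13, beside 15.4% and 7.27% of all shared peaks, so the order of the counts depends on the scaling.

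**Figure D5:**
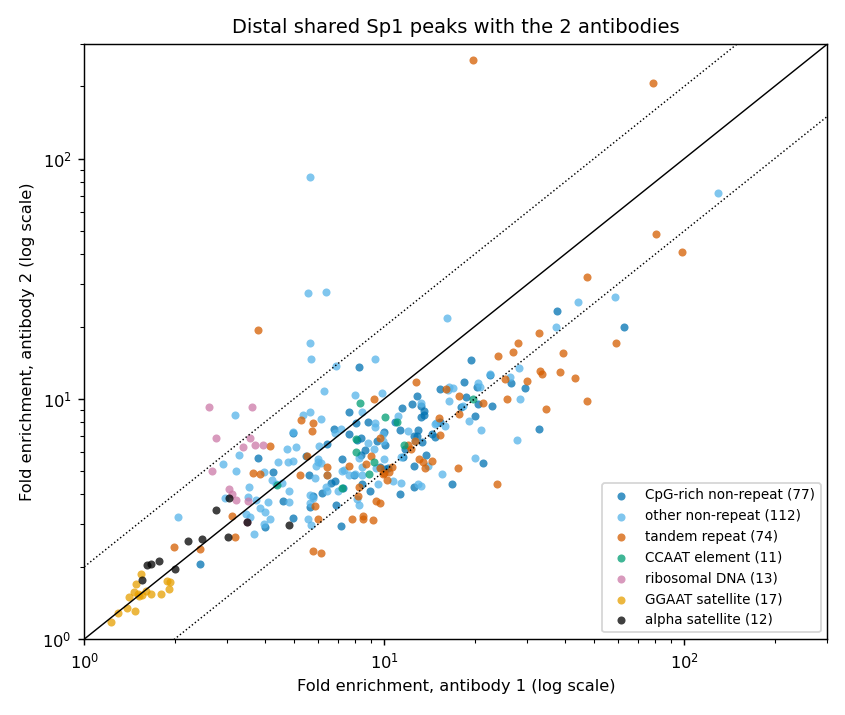
Fold enrichment of each member with antibody 1 and antibody 2 (log scales), coloured by sequence class, with equality as a solid line and 2-fold differences as dotted lines. The 12 members above the upper line include the FRG1, RAP1GAP2 and PIM3 sites, and the 73 below the lower line include 35 tandem repeats.

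The highest ratio belonged to the site in an intron of RAP1GAP2, a GTPase activator gene (chr17:2975436-2975714), with 5.64 with antibody 1 and 83.5 with antibody 2. It lay 9.69 kb from any GENCODE start but 81 bp from a RefSeq start of the same gene. The FRG1 site followed. A repeat at chr15:100556992-100557461 had 3.78 and 19.3, with summits 1311 bp apart. That repeat lay in an intron of PRKXP1, 12.2 kb from CERS3 but 1.51 kb from the nearest start of any kind. A site 3.23 kb from LSM10, the gene of a small nuclear ribonucleoprotein, had 5.56 and 27.5 (chr1:36400856-36401345). Its nearest start of any kind lay 1.73 kb away. An intron of SAP30BP held an ETS core and had 6.39 and 27.8 (chr17:75700520-75700928). Of the 12 members at least 2-fold higher with antibody 2, 1 held a GC box at the antibody 2 summit. The word CAGGAA, counted after it had been seen, lay there in 5. At their antibody 1 summits a GC box lay in 4, a box or the variant in 7 and CAGGAA in 3. These 12 members were too few to place any of these shares narrowly. The intervals for the GC box were 1.49 to 35.4% at antibody 2 summits and 13.8 to 60.9% at antibody 1 summits. CAGGAA was found in 9.49% of all members at antibody 2 summits and 8.80% of genome windows.

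The 5 lowest ratios belonged to sites with 1 to 10 GC boxes within 150 bp. The first was the end of chromosome 1 (chr1:10001-10622), with 23.7 with antibody 1 and 4.40 with antibody 2, where telomeric repeats abut GC boxes. A repeat of 23 bp with 8 GC boxes, 14.8 kb from FBRSL1, had 47.4 and 9.81 (chr12:132474296-132475706). RefSeq placed a start of MUC8 149 bp from the summit of that repeat. The CCNE1 site had 32.7 and 7.52. An intron of PLEC, the gene of the cytoskeletal linker plectin, had 27.8 and 6.72 (chr8:143951467-143953365). A site 4.19 kb from GLI4 had 21.4 and 5.41 (chr8:143278415-143279089), and its nearest start of any kind lay 2.46 kb away. Of the 73 members at least 2-fold higher with antibody 1, 43 held a GC box at the antibody 1 summit, 58.9% (47.4 to 69.5%). At the antibody 2 summit 39 did, 53.4% (42.1 to 64.4%), and 35 of the 73 were tandem repeats.

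Ribosomal DNA had the highest median ratio of antibody 2 to antibody 1 among the sequence classes. Its 13 members lay on chromosome 21 within 10 kb of a ribosomal RNA gene, near genes such as RNA5-8SN1, RNA5-8SN2 and RNA5-8SN3. Fold enrichment was 2.60 to 3.95 with antibody 1 and 3.07 to 9.22 with antibody 2, with medians of 3.39 and 6.32 and a median log2 ratio of 0.80. Of the 13, 8 overlapped a CTCF replicate 1 peak and none a replicate 2 peak, and 1 overlapped an IgG peak. The rule had removed peaks on CTCF peaks shared by the replicates, and 2 ribosomal DNA peaks were among the distal peaks with CTCF. The ribosomal DNA copies share their sequence, so reads cannot be assigned to a single copy and the 13 peaks are not independent sites.

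Satellite members were weak with both antibodies and often present with IgG. The 17 GGAAT satellite members, near centromeres of chromosomes 1, 4, 5, 10, 16 and 20, had fold enrichments of 1.23 to 1.93 and 1.17 to 1.87. Of these, 12 overlapped an IgG peak, 15 a CTCF replicate 2 peak and none a replicate 1 peak. The rule removed peaks on CTCF peaks shared by the replicates, which largely left overlaps with 1 replicate alone. Which replicate that was is not set by the rule, and its cause was not tested. The distal peaks with CTCF included 31 GGAAT satellite peaks. The 12 alpha satellite members, in the repeat of centromeres, had fold enrichments of 1.56 to 4.82 and 1.76 to 3.87, and 4 overlapped an IgG peak. They were recognised by local alignment to a unit of the repeat taken from chromosome 13 (chr13:17388204-17388374), with scores from 133 upwards and at most 18 in other members. Of the 21 members more than 100 kb from any start, 19 belonged to these classes. The farthest lay at chr13:16658046-16658415, 1520398 bp from a start, with fold enrichments of 1.77 and 2.12. The next were both on chromosome 10, 1496947 and 1375833 bp from a start, with 1.56 and 1.76, and with 2.21 and 2.55.

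IgG peaks overlapped 25 members, 7.91% (5.42 to 11.4%), beside 1.49% of all shared Sp1 peaks and 23.2% (17.2 to 30.5%) of distal peaks with CTCF. Of the 25, 16 were satellite members. The highest IgG fold enrichments were 8.82 at a site 34.1 kb from GPD2 (chr2:156400749-156401307), 6.02 at a site 25.3 kb from WNT11 (chr11:76235217-76236533) and 5.26 at an alpha satellite site on chromosome 17. At the GPD2 site the Sp1 antibodies gave 6.29 and 10.7, and at the WNT11 site 8.63 and 6.14, so IgG was above antibody 1 at the former and below both at the latter. The part of IgG recovery in the Sp1 values was not tested. Without the 25 members the GC box share was 45.0% and the medians were 8.52 and 6.00. A peak in CTCF replicate 1 alone overlapped 25 members, of which 13 were CpG-rich non-repeat members, and a peak in replicate 2 alone overlapped another 25, of which 19 were satellites. Because the rule removed peaks on shared CTCF peaks, it largely left overlaps with 1 replicate alone, but it does not set which replicate.

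By gene feature, 156 members were intergenic, 136 intronic, 13 in UTR exons, 6 in coding exons and 5 in exons of noncoding genes, shares of 49.4%, 43.0%, 4.11%, 1.90% and 1.58%. The median distance to a transcript start was 6273 bp, with quartiles of 2505 and 14966 bp. A GC box was held by 56.5% (44.1 to 68.1%) of the 62 members 1 to 2 kb from a start, by 41.4% of the 70 at 2 to 5 kb, by 50.7% of the 69 at 5 to 10 kb, by 38.8% (28.8 to 49.7%) of the 80 members 10 to 50 kb away and by 5.71% (1.58 to 18.6%) of the 35 beyond 50 kb, most of them satellites. The members just inside the 1 kb limit lay 1003, 1008 and 1008 bp from starts of ZSCAN10, ENSG00000230790 and TMEM216, with antibody 1 fold enrichments of 11.5, 7.26 and 3.67. The peaks just outside lay 995, 991 and 986 bp from ZNF846, COMTD1 and ENSG00000273046, with 21.2, 17.9 and 9.15. RefSeq placed a start within 1 kb of at least 14 members, among them RNF208 at 58 bp and OR1F1 at 473 bp. Members on chromosome 8 had no RefSeq distance, so they could not add to that count.

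CpG-rich windows, with at least 50% GC and an observed to expected CpG ratio of at least 0.6 within 250 bp of the summit, were found in 116 members, 36.7% (31.6 to 42.2%). The share was 89.2% (88.1 to 90.3%) in shared promoter peaks, 40.4% (32.9 to 48.4%) in distal peaks with CTCF and 1.15% in genome windows. Median GC content was 61.2% in members, 63.3% in promoter peaks and 39.9% in genome windows, whereas the median CpG ratio was 0.54 in members and 0.79 in promoter peaks. The members were thus close to promoters in GC content and lower in CpG ratio.

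Chromosomes 19, 17 and 21 held the most members, with 46, 29 and 25. On chromosome 21 the members were 37.3% of the shared Sp1 peaks, against 9.98% on chromosome 19 and 1.94% on chromosome 14. Of the 25 on chromosome 21, 13 were ribosomal DNA. For 22 of them the nearest protein-coding gene was TPTE, at distances of 689 kb to 4152 kb. CWH43 was nearest to 6 members, ZNF33B to 5, and DEFB115, H3-7 and TUBA3C to 3 each. In addition, GRIN2D, the gene of an NMDA receptor subunit, and TRIM27 were each the nearest of 3 members. The GRIN2D members had antibody 1 fold enrichments of 37.4, 7.99 and 6.14 and antibody 2 values of 19.9, 10.4 and 8.24.

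Genes of 5 lists of 15 genes each were sought within 50 kb of a member, beside 3.18% of 19962 protein-coding genes. One gene of the bone lineage list was near a member, SP7, which encodes the osteoblast factor osterix. Its member (chr12:53371145-53371752) lay 26.1 kb from SP7 and 8.79 kb from SP1 itself, and had fold enrichments of 7.19 and 7.46, with an ETS core and a CACCC box but no GC box at the summit. SP1 was the gene found among the Sp and KLF factors. Of the AP-1 and C/EBP factors, FOSB lay 24.5 kb from a member in an intron of ERCC1 (chr19:45443322-45443649), with 5.61 and 4.84, and JUNB lay 49.3 kb from one in an intron of HOOK2 (chr19:12840486-12840823), with 3.22 and 4.99. VEGFA, of the growth factor list, lay 45.0 kb from a member with 4.97 and 7.25 (chr6:43725005-43725458). No gene of the ETS list was near a member. Each list thus had 0 to 2 genes of 15 near a member, shares of 0 to 13.3%, and a single gene moves a share by 6.67 percentage points.

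Few members held the AP-1 site or the C/EBP word at the summit. The strongest with an AP-1 site was a tandem repeat with 3 copies of it near AFG3L1P (chr16:89994730-89996129), with 9.26 and 10.0. The next was a repeat at chr4:1566383-1567265, 13.9 kb from a start, with 12.7 and 6.68. The member with a C/EBP word lay 4.30 kb from ZNF157 (chrX:47366014-47366557), with 11.3 and 4.00.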

How the data were processed

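Peak lists of 5 ChIP-seq libraries were used, 1 per library. Per the submitters' processing notes the authors used cutadapt 2.6, Bowtie2 2.4.5, SAMtools 1.15.1, MACS2 2.2.7.1, bedtools 2.27.1 and deepTools 3.5.4 with hg38. The study's methods describe a liberal p cutoff, no local background and merged controls for a replicate step, and do not say whether these lists were made so. The deposited fold enrichment is a linear ratio over the control, the deposited −log10 p and −log10 q values belong to the summit, and the deposited score was not used. The lowest −log10 q was 1.30 with antibody 1 and 1.32 with antibody 2. The lists give no counts, and the depth of the libraries was not used here.

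Starts and features came from GENCODE release 44, and promoters' starts also from RefSeq except on chromosome 8. Sequences came from hg38, whose copy here has no soft-masking, so annotated repeats were not counted and repeat classes were built from the sequence. Where an antibody 1 peak overlapped several antibody 2 peaks, the one with the longest overlap was taken. Python 3.11.15, pandas 2.3.3, pysam 0.24.0 and Biopython 1.88 were used, and the counting was tested on simulated data. Words were sought on both strands. Alignment scored 1 per match, -1 per mismatch and -2 and -1 for opening and extending a gap.

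No test was run. The members, lists, classes and words were chosen with earlier results of these data known. Named sites were the 10 with the highest mean log2 fold enrichment, and the 5 highest and 5 lowest antibody ratios. Also named were 3 with the highest IgG value, 5 with the most GC boxes and 3 farthest from a start. So were 3 on each side of the 1 kb limit, the 2 strongest with an AP-1 site and the member with the C/EBP word. Members within 50 kb of a listed gene and genes nearest to at least 3 members were named as well. Ribosomal DNA and satellite sites were added after their values were seen. The sequence and sites of the CCAAT element are not reported here.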

Additional observations from a re-analysis of the deposited data

How the results depend on the processing

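The number of members was 184 with starts within 5 kb left out, 551 with starts of protein-coding genes alone, 208 with the summit of any overlapping antibody 2 peak within 100 bp (207 for the peak with the longest overlap) and 189 with all repeat classes left out, and it stayed within 1.5 times of 316 under the other alternatives, at 254 to 386. The GC box share was 49.4% within 100 bp, 35.4% at antibody 2 summits, 18.0% for the 9 bp form, 47.8% without satellites and ribosomal DNA and 58.2% without all repeat classes. The ETS core share was 8.23% within 100 bp, and the C/EBP word share was 0% over 5 kb from every start. The CpG-rich share was 28.8% with a GC content of at least 55% and a ratio of at least 0.65, and 31.0% over 5 kb from every start. The median log2 antibody ratio was -0.82 from −log10 p and -0.64 without satellites and ribosomal DNA. Members at least 2-fold higher with antibody 2 were 42 after centring and 6 with summits within 100 bp, and those higher with antibody 1 were 13 after centring. Leaving out CTCF replicate 1 or 2 in turn gave 291 to 294 members and a GC box share of 41.6 to 45.6%. No paired analysis was possible because replicate numbers recur between CTCF libraries and their inputs alone, and inputs are not analysed here. Of 75 alternatives, 57 left a value within its interval or a count within 1.5 times, 18 did not and 0 changed the sign of the median ratio, although centring turned the order of the 2-fold counts. Alternatives on repeat classes and RefSeq starts, and the 2-fold counts at a summit distance within 100 bp, were added once the data had been seen. Read depth was not used here, so a weak peak missing from a list cannot be told from an absent one.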

Other observations

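Some members shared their sequence or their partner peak. The 316 members overlapped 312 distinct antibody 2 peaks, and 8 members shared 4 of these. At a limit of 50% of 31 bp words in common, 20 members fell into 8 families of at least 2. Of these families, 4 were ribosomal DNA. One family of 3, on chromosome 21 near CTBP2P9, ENSG00000279303 and ENSG00000279967, had fold enrichments of 7.65 to 8.85 with antibody 1 and 8.01 to 8.81 with antibody 2, and RefSeq placed a start within 1 kb of each. A pair on chromosome 7, near NCF1 and its pseudogene NCF1C, had 14.8 and 15.3 with antibody 1, and both held a GC box. A pair near the pseudogenes AGGF1P1 on chromosome 4 and AGGF1P2 on chromosome 10 had 3.28 to 5.26 with antibody 1 and 5.83 to 8.19 with antibody 2, and neither held a GC box. Reads from such copies can be assigned to any of them, so these families are uncertain as separate sites. Between neighbouring members, 23 gaps were 10 kb or less.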
